A study of Mus musculus with 6 samples.

Results

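A set of 10 genes was described here in full, out of the 43346 rows of the deposited count table of irradiated and non-irradiated mouse femur. The 10 genes, picked by name, encode matricellular proteins and the fibrosis-related matrix protein fibronectin: Postn, Fn1, Tnc, Thbs2, Thbs3, Thbs4, Sparc, Sparcl1, Ctgf and Cyr61. All 10 were found, 1 row each, and all 10 passed the filter on low counts. Every library came from the femur of C57BL/6 mice, an inbred laboratory strain, irradiated at 4 months of age. The radiated group (n = 3) was right femurs whose distal metaphysis, the spongy end of the shaft beside the growth plate, received X-rays once, 24 Gy at 6.6 Gy per minute over 5 mm. The non-radiated group (n = 3) was the left femurs, which received no dose but belonged to the irradiated mice. Bone pieces with the muscle taken off were collected on day 21, ahead of the bone loss that the study saw later, and the comparison asks how the 2 femurs differed at that time. The labels do not say that the libraries of a group came from separate mice, so p-values measure the spread between these libraries.

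Matricellular proteins are secreted into the extracellular matrix but do not build its fibres. They bind collagen, growth factors and cell-surface integrins, and change how cells attach, move and respond to TGF-beta. In bone, periostin marks the periosteum, SPARC (osteonectin) is among the most abundant non-collagen proteins of the mineralized matrix, and several others are induced in wound repair and fibrosis. Ctgf and Cyr61 are textbook targets of the transcriptional coactivators YAP and TAZ, which act through TEAD factors.

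Total gene counts ran from 34034251 to 48708383 per library. Non-radiated library 2 stood apart, with 32.9% of its counts in the single row AY036118 against 0.321% to 5.61% in the others. The osteoblast markers of the labelled tissue were abundant: Col1a1, the main collagen gene of bone, averaged 5233 CPM in non-radiated and 3419 CPM in radiated femur. CPM is a count scaled to the library's total, here with edgeR's TMM factors. The summed CPM of 10 skeletal muscle markers was 187, 328 and 160 without radiation and 719, 2364 and 188 with it, for libraries 1, 2 and 3, so muscle RNA varied most among the radiated pieces. All 10 had positive log2 fold changes and none was called. Of the other marker lists, all 9 megakaryocyte markers and 4 of 11 osteoblast markers fell, and 7 of 8 adipocyte and 6 of 8 macrophage markers rose. Of 10 chondrocyte, 10 endothelial and 6 marrow stroma markers, 0, 2 and 1 fell and none rose. In a bulk sample, fewer cells of a type and less RNA per cell cannot be told apart.

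Of the 10 genes 3 rose in radiated femur, Thbs4, Thbs2 and Cyr61, and 0 fell. DESeq2 and limma-voom also called 3, and 5 had an unadjusted p under 0.05 in edgeR, each with a positive fold change, beside 4040 of all 18757 genes tested. A gene was called when its adjusted p (edgeR's quasi-likelihood test, Benjamini-Hochberg over all genes tested) was under 0.05. Over the 18757 genes tested 7.80% were called, 4.56% higher and 3.24% lower. For 4 of the 10 genes every radiated library lay above every non-radiated one. The groups were separate in either direction for 25.9% of all genes tested, and 14.4% were separate with the radiated libraries higher. The median log2 fold change of the 10 was 0.38, against 0.0023 over all genes tested. The 10 genes were chosen with earlier results of these data known, so these counts and medians are a description and no test of the family. Under library totals alone, a scaling that AY036118 enters, 85.4% of called genes were higher against 58.5% with TMM, and the median of all genes was 0.19.

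The 250 bases before the start site are shown for the 3 genes that rose, to set the upstream letters of the known YAP and TEAD target Cyr61 beside those of the other 2. They come from a table of RefSeq promoters (GRCm38.p6) in which 7 of the 10 genes were matched. Promoters of Fn1, Sparcl1 and Ctgf were not analysed here. Capitals mark matches on either strand to CATTCC, the core bound by TEAD factors, or to TATAAA, the TATA box. The Cyr61 window is chr3:145649986-145650235 on the minus strand, the Thbs4 window chr13:92794819-92795068 on the minus strand and the Thbs2 window chr17:14694263-14694512 on the minus strand, each printed 5′ to 3′ along the gene.
Cyr61: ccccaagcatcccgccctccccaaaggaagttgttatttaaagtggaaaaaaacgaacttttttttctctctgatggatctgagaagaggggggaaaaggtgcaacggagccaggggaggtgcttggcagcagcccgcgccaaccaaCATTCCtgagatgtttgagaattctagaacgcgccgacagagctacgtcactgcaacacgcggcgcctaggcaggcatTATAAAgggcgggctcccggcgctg
Thbs4: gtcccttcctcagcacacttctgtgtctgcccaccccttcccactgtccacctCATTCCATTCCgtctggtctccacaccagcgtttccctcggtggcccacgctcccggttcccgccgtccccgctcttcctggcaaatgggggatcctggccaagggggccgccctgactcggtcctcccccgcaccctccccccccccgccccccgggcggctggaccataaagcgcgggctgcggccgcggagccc
Thbs2: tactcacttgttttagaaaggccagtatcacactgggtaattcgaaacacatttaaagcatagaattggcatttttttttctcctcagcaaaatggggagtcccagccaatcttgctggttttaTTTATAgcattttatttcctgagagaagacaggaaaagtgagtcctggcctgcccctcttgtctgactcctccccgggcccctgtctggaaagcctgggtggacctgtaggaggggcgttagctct

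The Cyr61 window held 1 CATTCC, beginning 103 bases before the start site, and a TATAAA beginning 25 bases before it. The Thbs4 window held 2 copies of CATTCC, beginning 197 and 192 bases before the start site and sharing a base. The Thbs2 window held no CATTCC and a TATAAA on the opposite strand. Of 32841 RefSeq windows of this length, 12.6% held CATTCC at least once, 1.02% held it 2 or more times and 12.4% held TATAAA. Neither CATTCC nor the AP-1 motif TGANTCA, present in 6.75% of windows, was found upstream of Postn, Tnc, Thbs2, Thbs3 or Sparc, nor was TGANTCA upstream of Cyr61 or Thbs4. These are matches of letters and not binding sites.

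Levels of different genes were set side by side only per kilobase of gene length, as CPM per kilobase. Sparc was highest, with a mean of 385 CPM per kilobase over the 6 libraries, followed by Tnc (tenascin-C, a large hexameric glycoprotein of remodelling tissue) at 91.8 and Fn1 (fibronectin, the fibril-forming ligand of integrins) at 42.4. The ranges of these 3 did not overlap with each other or with the genes below. Ctgf and Postn followed at 13.43 and 12.95, Thbs2 at 7.01 and Cyr61 at 5.17, and each of these neighbours overlapped. Thbs4, Sparcl1 and Thbs3 were lowest, at 1.76, 1.45 and 1.02. Thbs4 also varied most over the 6 libraries, 10.6-fold between its lowest and highest level, against 1.31-fold for Fn1.

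**Figure D1:**
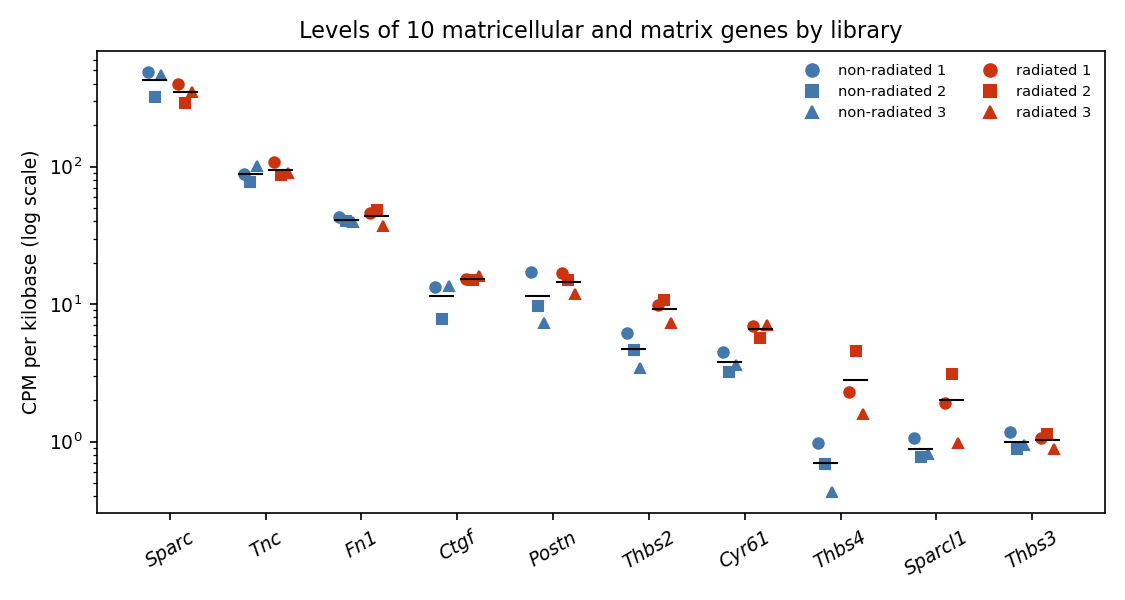
Levels of the 10 genes in CPM per kilobase (log axis), 1 point per library and a bar at each group mean (n = 3 each). Thbs4, Thbs2, Cyr61 and Ctgf have every radiated library above every non-radiated one, while Sparc spans 292 to 489 with its groups overlapping.

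Among the thrombospondins, secreted glycoproteins that bind matrix, integrins and TGF-beta regulators, Thbs4 and Thbs2 rose. Thbs4 (ENSMUSG00000021702, mm10 chromosome 13, 92751590 to 92794818), known from tendon, muscle and nerve, was at 3.21, 2.28 and 1.42 CPM in non-radiated libraries 1, 2 and 3 and at 7.61, 14.98 and 5.27 CPM in the radiated ones. All 3 radiated libraries lay above all 3 non-radiated ones, and radiated library 2 was highest. The means were 2.30 ± 0.897 and 9.29 ± 5.07 CPM (SD, n = 3 per group), a fold change of 4.06 (95% interval 2.16 to 7.64, adjusted p 0.0165). These values rest on 57 to 117 counts per non-radiated library and 235 to 800 per radiated library. Leaving out non-radiated library 2 gave an adjusted p of 0.0633, and leaving out non-radiated library 3 gave 0.0548. Without radiated library 2 the log2 fold change fell from 2.02 to 1.49 and the call held (adjusted p 0.0169).

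Thbs2 (ENSMUSG00000023885, chromosome 17, 14665500 to 14694262), a fibroblast and stromal gene that limits angiogenesis, was at 36.6, 27.4 and 20.4 CPM in non-radiated libraries 1, 2 and 3. In radiated libraries 1, 2 and 3 it was at 58.4, 63.1 and 43.0 CPM. The groups were separate, with non-radiated library 1 closest to radiated library 3. The mean went from 28.1 ± 8.11 to 54.8 ± 10.5 CPM (SD, n = 3 per group), 1.95-fold (95% interval 1.42 to 2.68, adjusted p 0.0207). The call was lost when non-radiated library 2 (adjusted p 0.0784), radiated library 1 (0.0745) or both libraries numbered 2 (0.0878) were left out. In each of the 3 comparisons of a radiated library with the non-radiated one of its number, Thbs2 and Thbs4 were higher in the radiated library.

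Thbs3, the least abundant of the 10 per kilobase and a gene of skeletal development, was at 5.65, 4.27 and 4.53 CPM without radiation and at 5.15, 5.51 and 4.28 CPM with it, for libraries 1, 2 and 3. The groups overlapped, and the fold change of 1.03 had a 95% interval of 0.810 to 1.31 (adjusted p 0.905). Thbs3 lies within the span of Mtx1, which the GENCODE M21 annotation places on the opposite strand and which had 352 to 818 counts per library. Whether the counting used strand is not given in the sources used here, so the Thbs3 level is uncertain.

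Muscle markers differed between the libraries in which Thbs4 and Thbs2 were high. Radiated libraries 2 and 1 had the highest muscle marker sums and the highest CPM of Thbs4 and Thbs2. Radiated library 3 and non-radiated library 1 had nearly equal muscle marker sums, 188 and 187, and between them Thbs4 was at 5.27 and 3.21 CPM and Thbs2 at 43.0 and 36.6 CPM. With the mean log2 level of the muscle markers as a covariate, the log2 fold change of Thbs4 was 1.21 (adjusted p 0.0402) and that of Thbs2 was 0.72 (adjusted p 0.0831). The summed CPM of 5 tendon markers was 14.1 to 25.1 in non-radiated and 33.5 to 50.2 in radiated femur. Of these 5 markers 3 were tested, with log2 fold changes of 0.15 to 1.15, and 1, Fmod, rose. Scx, a tendon transcription factor, had a log2 fold change of 0.93 (adjusted p 0.187), and Tnmd and Kera, which define tendon more closely, averaged 0.543 and 0.227 CPM in radiated femur. Over the 6 libraries of both groups together, log2 CPM of Thbs2 and Thbs4 had Pearson r of 0.995 and 0.985 with the summed tendon markers. Fmod by itself had r of 0.995 with Thbs2, so for Thbs2 the tendon sum cannot be told apart from this 1 gene. For Thbs2 and Thbs4 r was 0.754 and 0.841 with the muscle marker sum, and 0.909 and 0.914 with the adipocyte marker sum. It was 0.904 and 0.857 with the macrophage sum, -0.816 and -0.818 with the megakaryocyte sum and -0.769 and -0.835 with the osteoblast sum. A sum that differs between the groups raises the size of r by itself, so these values do not single out a tissue. No fit took the tendon markers as a covariate, so the part of tendon tissue in the result was not tested.

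**Figure D2:**
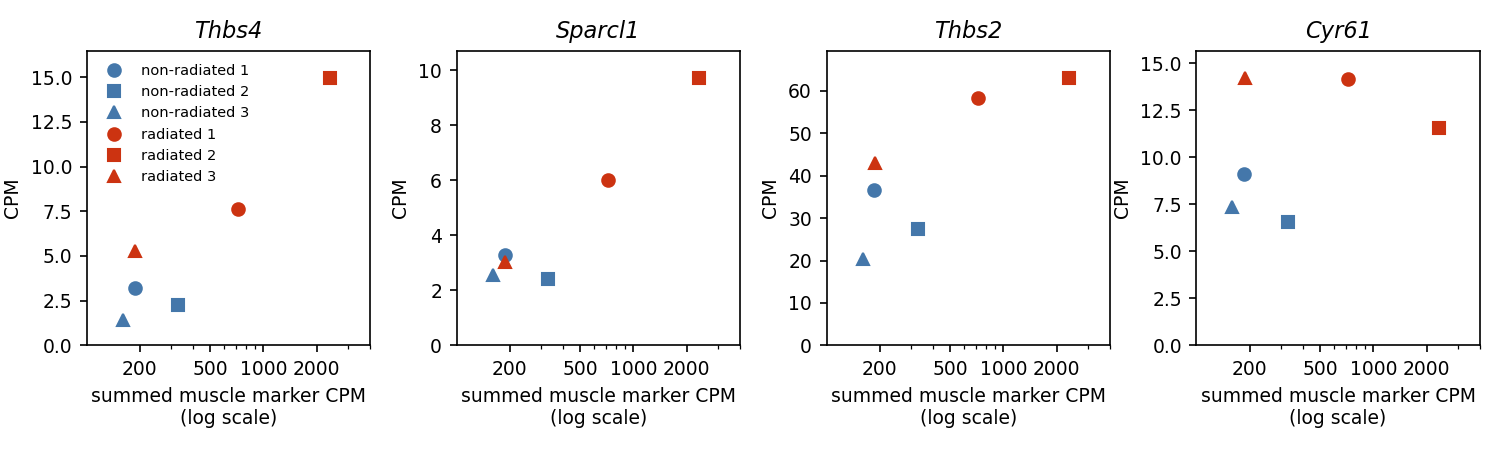
CPM of Thbs4, Sparcl1, Thbs2 and Cyr61 (linear axis from 0) against the summed CPM of 10 skeletal muscle markers (log axis), 1 point per library. Radiated library 2, at 2364 on the horizontal axis, has the highest Thbs4, Sparcl1 and Thbs2 but the lowest Cyr61 of the radiated libraries.

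The thrombospondin family includes Thbs1, carried by platelets and megakaryocytes, and Comp, of cartilage and tendon. Both moved, in opposite directions. Thbs1 was at 540, 560 and 556 CPM in non-radiated and 297, 281 and 272 CPM in radiated libraries 1, 2 and 3, a log2 fold change of -0.96 (SE 0.06, adjusted p 2.29e-05). Comp was at 30.1, 21.4 and 26.2 CPM in non-radiated and 49.7, 38.9 and 44.3 CPM in radiated femur (log2 fold change 0.77, SE 0.13, adjusted p 0.00705). Neither gene's groups overlapped.

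Of the summed CPM per kilobase of the 5 thrombospondin genes, Thbs1 made up 81.1%, 86.0% and 85.4% without radiation and 59.2%, 58.8% and 61.5% with it, for libraries 1, 2 and 3. The share fell by 24.3 percentage points between the group means, and by 22.9 to 25.9 percentage points when libraries were left out. The scaling of libraries does not enter this share. Thbs2 made up 4.39% ± 1.21 of the non-radiated and 11.8% ± 1.79 of the radiated sum, Thbs4 0.646% ± 0.244 and 3.60% ± 1.93, and Comp 9.89% ± 1.56 and 23.4% ± 2.62 (SD, n = 3 per group). The share of Thbs3, whose level had a fold change of 1.03, also went up, from 0.92% ± 0.13 to 1.32% ± 0.12. A fall in the share of Thbs1 raises the other shares by itself, so these rises alone do not show higher levels. The sum itself was 107 to 110 CPM per kilobase in non-radiated and 72.7 to 82.7 in radiated femur. All 9 megakaryocyte markers fell beside Thbs1, with a median change of -1.45 on the log2 scale and a summed CPM of 1020 to 1088 without and 350 to 416 with radiation; the part of these cells in the fall of Thbs1 was not tested.

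**Figure D3:**
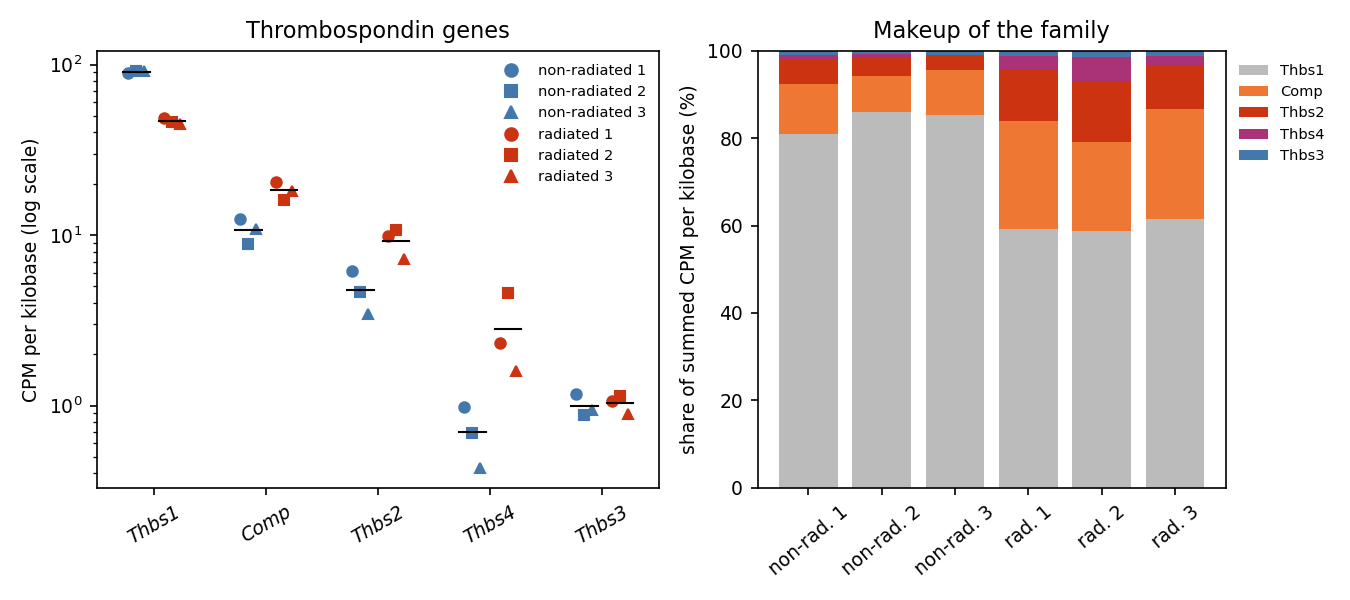
Left, CPM per kilobase of the 5 thrombospondin genes (log axis), 1 point per library, bars at group means (n = 3 each). Right, the share of each gene in their sum by library, with Thbs1 at 81.1% to 86.0% in non-radiated and 58.8% to 61.5% in radiated femur.

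Of the CCN genes, which encode modular growth-factor-binding matrix proteins, Cyr61 rose. Cyr61 (CCN1; ENSMUSG00000028195, chromosome 3, 145646971 to 145649985), an immediate-early gene that promotes adhesion and angiogenesis, was at 9.11, 6.55 and 7.34 CPM in non-radiated libraries 1, 2 and 3 and at 14.2, 11.6 and 14.2 CPM in the radiated ones. The lowest radiated library stood above the highest non-radiated one. The means were 7.66 ± 1.31 and 13.3 ± 1.52 CPM (SD, n = 3 per group), a fold change of 1.73 (95% interval 1.39 to 2.16, adjusted p 0.00958). Unlike Thbs4 and Thbs2, Cyr61 was called in all 16 fits run, with adjusted p of at most 0.0443. With the muscle covariate its log2 fold change was 0.96 (adjusted p 0.00521). Over the 6 libraries of both groups, log2 CPM of Cyr61 had Pearson r of -0.938 with the summed megakaryocyte markers and 0.888 with the macrophage sum. With the adipocyte and tendon sums r was 0.866 and 0.844. No fit took these sums as covariates, so the part of these cell types in the rise of Cyr61 was not tested.

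Ctgf (CCN2; ENSMUSG00000019997, chromosome 10, 24595442 to 24598683), a profibrotic gene induced by TGF-beta and mechanical load, was at 37.9, 22.2 and 38.8 CPM in non-radiated libraries 1, 2 and 3 and at 43.3, 42.7 and 45.8 CPM in the radiated ones. The groups did not overlap, but non-radiated library 2 stood well below all others. The fold change was 1.33 (95% interval 1.01 to 1.74) and was not called (adjusted p 0.215). Without non-radiated library 2 the log2 fold change went from 0.41 to 0.18 (adjusted p 0.249). Ctgf overlaps Gm15270, which had 17 to 57 counts per library against 555 to 2279 for Ctgf.

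Another CCN gene, Nov (CCN3), rose from 0.319 ± 0.126 to 2.22 ± 1.09 CPM (SD, n = 3 per group, log2 fold change 2.85, adjusted p 0.00628). Its non-radiated level rests on 12, 11 and 8 counts in libraries 1, 2 and 3. The radiated libraries, at 2.46, 3.17 and 1.03 CPM, were in the order of their muscle marker sums. With the muscle covariate the log2 fold change of Nov was 2.04 (adjusted p 0.00966). Wisp1 and Wisp2 had log2 fold changes of -0.08 and -0.27 (adjusted p 0.807 and 0.389). As a share of the summed CPM per kilobase of the 6 CCN genes, Cyr61 went from 12.8% ± 1.89 to 18.4% ± 1.08 and Ctgf from 38.0% ± 3.04 to 43.1% ± 1.95, while Wisp1 went from 27.5% ± 1.58 to 21.8% ± 1.77 (SD, n = 3 per group). The groups did not overlap in any of these 3 shares. The shares of Wisp2 (20.0% to 13.9%) and Wisp3 (1.22% to 0.591%) also went down with separate groups, while the sum of the 6 genes overlapped between the groups. A fall in some shares raises the others by itself, so the share of Ctgf alone does not show a higher level.

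Sparc and Sparcl1 are related calcium-binding matrix glycoproteins, and their values lay on opposite sides of no change without either being called. Sparc (ENSMUSG00000018593, chromosome 11, 55394500 to 55420080) was at 1646, 1070 and 1561 CPM in non-radiated libraries 1, 2 and 3 and at 1344, 984 and 1170 CPM in the radiated ones. The groups overlapped through non-radiated library 2. The fold change was 0.818 (95% interval 0.631 to 1.06, adjusted p 0.365). Without non-radiated library 2 the log2 value went from -0.29 to -0.47 (adjusted p 0.0900). The libraries lowest in Sparc within each group, both numbered 2, were also lowest in summed osteoblast markers, at 8253 CPM of 8253 to 12551 in non-radiated and 6096 CPM of 6096 to 7893 in radiated femur. These libraries were also lowest in summed chondrocyte markers, at 161 CPM of 161 to 511 in non-radiated and 163 CPM of 163 to 299 in radiated femur. Sparc is also stored in platelets, whose megakaryocyte markers fell. The part of any of these cell types was not tested.

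Sparcl1 (hevin; ENSMUSG00000029309, chromosome 5, 104079111 to 104114088) was at 3.29, 2.40 and 2.55 CPM in non-radiated libraries 1, 2 and 3 and at 6.00, 9.74 and 3.05 CPM in the radiated ones. Radiated libraries 1 and 2 were high, and radiated library 3 lay within the non-radiated range. The fold change of 2.28 (95% interval 1.30 to 3.99) was not called (adjusted p 0.0809). It was called without radiated library 3 (log2 fold change 1.52, adjusted p 0.00585), with no filter on low counts (1.19, adjusted p 0.00715) and under library totals alone (1.36, adjusted p 5.7e-05). Leaving out radiated library 2 gave 0.71 (adjusted p 0.198), and leaving out both libraries numbered 2 gave 0.62 (adjusted p 0.380). The order of the radiated libraries was that of their muscle marker sums, and with the muscle covariate the log2 fold change was 0.37 (adjusted p 0.533). Fstl1, a secreted relative of Sparc, rose from 78.6 ± 7.79 to 145 ± 12.8 CPM (SD, n = 3 per group; log2 fold change 0.88, SE 0.09, adjusted p 0.00043).

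Postn, Fn1 and Tnc, which are among the genes read as signs of fibrotic remodelling, were not called. Postn (periostin; ENSMUSG00000027750, chromosome 3, 54361109 to 54391034) was at 134, 76.3 and 57.1 CPM in non-radiated libraries 1, 2 and 3 and at 132, 117 and 92.1 CPM in the radiated ones. Non-radiated library 1 was above all radiated libraries, and the other two non-radiated libraries were below them. The fold change was 1.27 (95% interval 0.843 to 1.93, adjusted p 0.507), and without non-radiated library 1 the log2 fold change was 0.77 in place of 0.35 and was called (adjusted p 0.0399). Leaving out non-radiated library 3 gave 0.0998 (adjusted p 0.837), and leaving out radiated library 1 gave 0.23 (adjusted p 0.797).

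Fn1 (ENSMUSG00000026193, chromosome 1, 71585520 to 71653200) was at 505, 468 and 461 CPM in non-radiated and at 542, 564 and 431 CPM in radiated libraries 1, 2 and 3. The fold change of 1.07 had a 95% interval of 0.918 to 1.25 (adjusted p 0.629). Tnc (ENSMUSG00000028364, chromosome 4, 63959785 to 64047015) was at 686, 602 and 782 CPM in non-radiated and at 838, 673 and 699 CPM in radiated libraries 1, 2 and 3. Its fold change of 1.07 had a 95% interval of 0.895 to 1.27 (adjusted p 0.702). For both genes the groups overlapped, and the intervals bound how large a change these libraries allow. The table has 1 row per gene, so splice forms of fibronectin or tenascin-C were not analysed here.

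**Figure D4:**
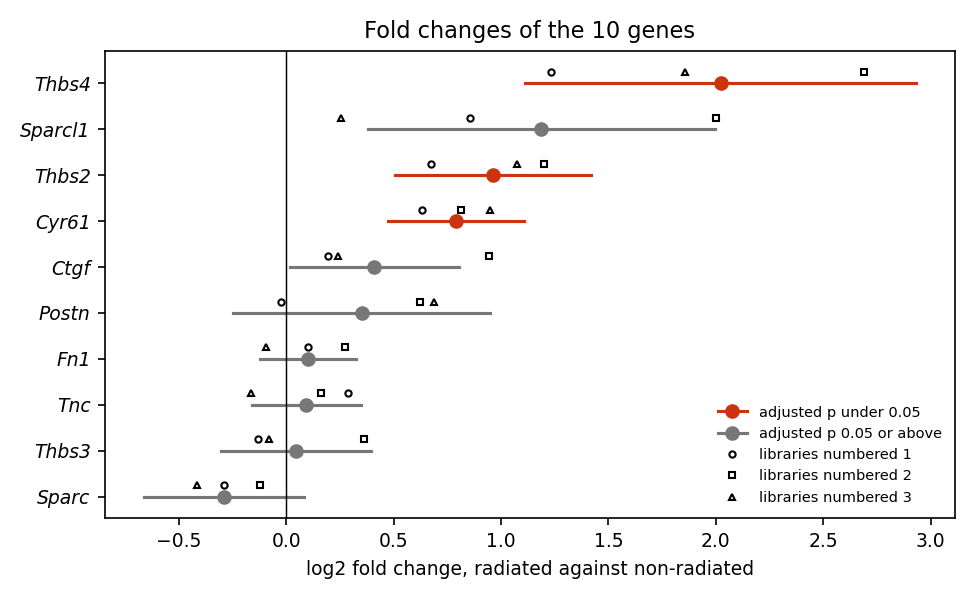
Log2 fold changes of the 10 genes (large points) with 95% intervals, red where the adjusted p was under 0.05, and the log2 ratio of each radiated library to the non-radiated library of the same number (small open symbols). Thbs4, Thbs2 and Cyr61 are in red, and the 3 small symbols of each lie above 0.

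The genes whose log2 CPM over the 6 libraries was most like that of each called gene were listed as a description, over libraries of both groups together. They are the highest among all genes averaging at least 5 CPM, so with 6 libraries a high r follows in part from the selection. For Thbs2 they were Fmod, Dkk3 and Fndc1 (Pearson r 0.995, 0.993 and 0.991). For Thbs4 they were Ldb2, Fndc1 and Dkk3 (0.996, 0.989 and 0.988), so that Dkk3 and Fndc1 were in both lists. Ldb2 was not called (log2 fold change 0.25, adjusted p 0.229). Dkk3 and Fndc1 encode secreted proteins, and Fmod, which is also in the tendon marker list, a collagen-binding proteoglycan. For Cyr61 they were Slc9a7, Camk2d and Endou, with r of 0.996 or above. Among the 10 genes themselves the highest value was between Thbs2 and Thbs4, 0.973, and that of Ctgf with Cyr61 was 0.794.

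The 6 lists of related genes were read beside the 10. Of 17 other matricellular family genes 15 were tested, 5 rose and 1, Thbs1, fell. Their median was 0.34 on the log2 scale. Besides Fstl1, Nov and Comp these were Smoc1 (0.66, adjusted p 0.0368) and Tnxb (3.25, adjusted p 0.0140). Tnxb, the tenascin of loose connective tissue, was at 0.968 to 1.32 CPM in non-radiated and at 7.98, 21.0 and 2.94 CPM in radiated libraries 1, 2 and 3, in the order of their muscle marker sums. Spp1 (osteopontin) and Tgfbi, the relative of periostin, had log2 fold changes of -0.31 and -0.08 (adjusted p 0.264 and 0.657).

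Of 21 matrix receptor genes 4 rose and 2 fell, with a median of 0.14. The falls were Itgb3 and Itga2 (log2 fold changes -1.09 and -0.73, adjusted p 1.43e-05 and 0.00194), integrin subunits carried by platelets, beside the fall of the megakaryocyte markers. Under library totals alone the adjusted p of Itga2 was 0.156. The rises were Lrp1, the endocytic receptor that clears thrombospondins (0.56, adjusted p 0.00844), the syndecan Sdc4 (0.49, adjusted p 0.0114), Itga7, the laminin-binding subunit of muscle (0.996, adjusted p 0.0404), and Itga9 (0.30, adjusted p 0.0316), an integrin subunit that binds tenascin-C. The fibronectin receptor subunits Itga5 and Itgb1 had log2 fold changes of -0.0027 and -0.19 (adjusted p 0.988 and 0.0862).

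Cyr61 and Ctgf are commonly read with other YAP and TAZ targets. Of 20 such genes 19 were tested, 7 rose and 2, Igfbp3 and Dock5, fell, with a median of 0.34. Myof rose from 48.7 ± 3.46 to 74.1 ± 4.97 CPM, Axl from 272 ± 8.19 to 367 ± 18.5 CPM, Amotl2 from 23.1 ± 2.95 to 34.5 ± 1.21 CPM and Tgfb2 from 4.54 ± 0.306 to 6.93 ± 0.211 CPM (SD, n = 3 per group), with adjusted p of 0.00132, 0.00284, 0.00615 and 0.0122. Under library totals alone the adjusted p was 0.0531 for Axl and 0.0589 for Tgfb2. That of Tgfb2 was also 0.0529 when non-radiated library 2 was left out, 0.0546 for radiated library 1 and 0.0878 for both libraries numbered 2. The count of 9 called became 5 when non-radiated library 2 was left out, 3 for radiated library 1, 4 for both libraries numbered 2, and 4 under library totals alone. Ankrd1, a muscle-enriched target, was under the filter at 0.0316 and 0.141 CPM.

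Of 13 genes listed for the Hippo pathway core, 1 rose and 1 fell, with a median of 0.011. The list joins genes that restrain YAP and TAZ with YAP, TAZ and the TEAD factors themselves, so its median mixes the restraining and the restrained parts. Tead1, a TEAD factor, went from 18.8 ± 0.994 to 31.7 ± 1.85 CPM (SD, n = 3 per group; log2 fold change 0.75, SE 0.08, adjusted p 0.000517). The kinase adaptor Mob1b fell by 0.55 (adjusted p 0.0019), but its adjusted p was 0.472 when only library totals scaled the counts. Yap1 and Wwtr1, which encodes TAZ, had log2 fold changes of 0.13 and 0.37 (adjusted p 0.450 and 0.118).

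Of 21 matrix assembly and cross-linking genes 20 were tested, 3 rose and 0 fell, with a median of 0.17. The 3 were Fbn1, which encodes the microfibril protein fibrillin-1 (0.61, SE 0.07, adjusted p 0.00108), Fbln1 (0.88, adjusted p 0.0198) and Mfap5 (2.42, adjusted p 0.0348). The adjusted p of Fbln1 was 0.0705 when non-radiated library 2 was left out, 0.0604 for non-radiated library 3, 0.0755 for radiated library 1 and 0.0947 for both libraries numbered 2, and it was 0.0991 with the muscle covariate. With the replicate number as a block 7 of the list were called, and with the muscle covariate 1. Lox, the collagen cross-linking enzyme, had a log2 fold change of 0.061 (adjusted p 0.832).

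Of 17 activated fibroblast genes 16 were tested, 4 rose and 3 fell, with a median of 0.22. The contractile genes Acta2 and Tagln rose the most: Acta2 was at 3.57, 2.48 and 4.11 CPM in non-radiated and 12.4, 11.1 and 10.4 CPM in radiated libraries 1, 2 and 3 (log2 fold change 1.73, SE 0.17, adjusted p 0.000517). Tagln went from 0.839 ± 0.133 to 4.46 ± 1.22 CPM (SD, n = 3 per group; log2 fold change 2.40, adjusted p 0.000446). Tgfb3 rose by 0.52 (adjusted p 0.0479), while Myl9, Pdgfra and Cthrc1 fell by 0.71, 0.63 and 0.67 (adjusted p 0.00417, 0.0112 and 0.0244). The call of Myl9, also a platelet gene, was lost under library totals alone (adjusted p 0.216). Col3a1, the fibrillar collagen of scars, had a log2 fold change of 0.74 that was not called (adjusted p 0.140). Acta2 and Tagln are also smooth muscle genes: of 7 mural cell markers 1, Rgs5, rose, and their summed CPM was 160 to 182 in non-radiated and 172 to 201 in radiated femur. The part of mural cells in these rises was not tested.

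**Figure D5:**
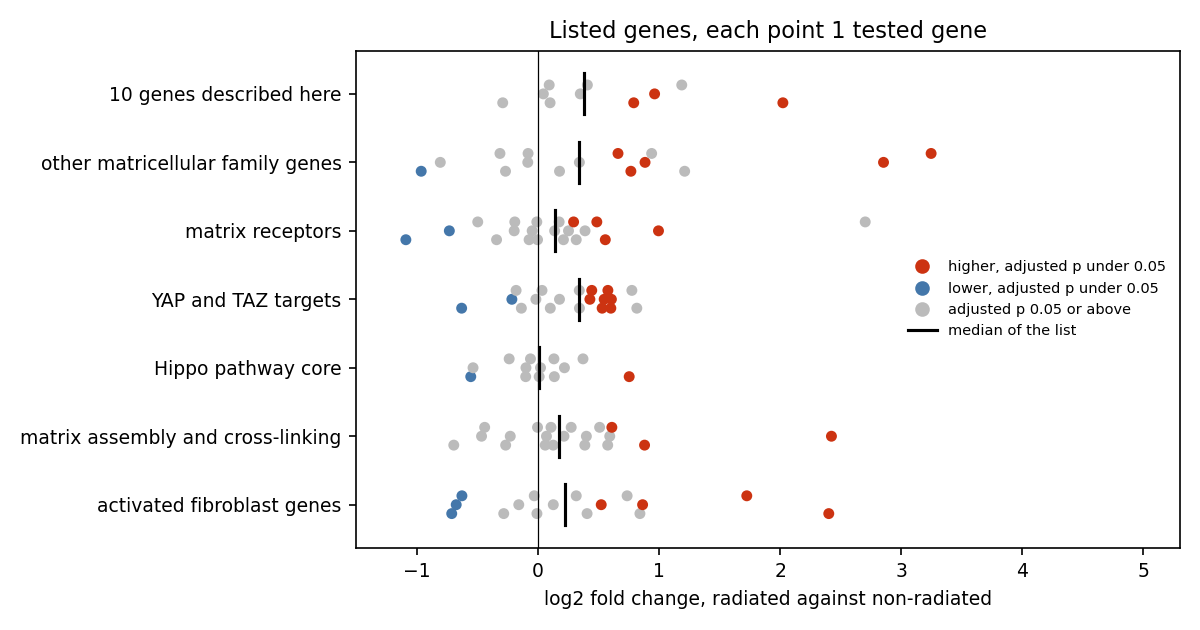
Log2 fold changes of each tested gene in 7 lists, red where called higher, blue where called lower and grey where not called, with a bar at each list's median. The medians run from 0.011 for the Hippo pathway core to 0.38 for the 10 genes, against 0.0023 over all genes tested. The 10 genes and the lists were chosen with earlier results of these data known.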

How the data were processed

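RNA was sequenced from 3 radiated and 3 non-radiated femur pieces with a stranded mRNA kit, per the labels' protocols. The deposited table gives, per the file headers, raw counts and RPKM for each gene and library. The submitters' processing notes name bcl2fastq, STAR 2.5.2b, Subread, featureCounts and mm10; annotation, filters and strand use are not given in the sources used here. The authors' RPKM divides counts by gene length and by a constant 5.55 to 6.91 times the library's gene counts, so no test used RPKM. The gene length column of the deposited table, in bases, served for CPM per kilobase.

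Counts were tested with edgeR 4.0.16 (R 4.3.3): filterByExpr (minimum count 10, minimum total 15), TMM, glmQLFit and glmQLFTest with group as the only term, and Benjamini-Hochberg adjustment over 18757 genes. The standard error is the log2 fold change divided by the square root of F, and 95% intervals use the test's degrees of freedom. The biological coefficient of variation was 12.9%. The fit was tested on simulated data. All 203 listed entries were found, 2 by gene ID. Replicate pairs differed far beyond counting noise (chi-square per degree of freedom 16.6 to 580). Libraries 1 and 3 gave 42.25 in non-radiated and 16.6 in radiated femur, and pairs with a library numbered 2 gave 111 to 580. These values used library totals and kept AY036118 in, so the upper ones do not measure noise over genes in general.

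Same-numbered libraries deviated together from their group means across genes (r 0.166, 0.277 and 0.187, different numbers -0.170 to -0.008). The numbers were therefore taken as pairs in an alternative fit with a replicate block, though the labels do not say so. The main fit, which gave the p-values and intervals unless another fit is named, did not use the pairs. Alternatives were a replicate block, a muscle covariate, DESeq2 1.42.0 size factors, library totals, 2 other filters, DESeq2's Wald test, limma-voom 3.58.1 and leaving out each library. Leaving out both libraries numbered 2 was added after the data were seen.

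The 10 genes and the lists were chosen with earlier results of these data known. Named in the lists were up to 4 called genes with the smallest p, a mean of at least 1 CPM and separate groups. The genes of like pattern were the 3 with the highest r to each called gene among those averaging at least 5 CPM. Other list genes, and the grouping into families, were chosen after their values were seen. A called gene of the lists is not reported here.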

Additional observations from a re-analysis of the deposited data

How the results depend on the processing

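Of the 10 genes 3 were called, against 1 to 4 when single libraries were left out, and the 1 was Cyr61, without non-radiated library 2. Over all genes 1463 were called, 764 to 1376 when single libraries were left out and 779 without both libraries numbered 2. Of the listed pathway genes 33 were called, and 21 to 35 when single libraries were left out. With the replicate block, which uses the numbers as pairs, 1670 genes, 3 of the 10 and 40 listed genes were called, and the block changed no call among the 10. Of the matrix receptors 6 were called, and 10 with DESeq2's Wald test. Of the matrix assembly genes 3 were called, 7 with the block, 6 with no filter on low counts and 5 with DESeq2's Wald test. Log2 fold changes near 0 changed sign: Fn1 was -0.052 with the muscle covariate. When single libraries were left out, Tnc ran from -0.0099 to 0.187, Thbs3 from -0.044 to 0.175 and the Hippo core median from -0.0091 to 0.026. Sign changes came without non-radiated library 2 (Tnc -0.0095) or radiated library 1 for Tnc. Thbs3 was -0.082 with the muscle covariate, -0.044 without non-radiated library 2, -0.0071 without non-radiated library 3, -0.036 without radiated library 2 and -0.11 without both libraries numbered 2. The Hippo core median was -0.0025 and -0.0091 without non-radiated libraries 2 and 3, -0.0052 and -0.0062 without radiated libraries 1 and 3, and -0.041 without both libraries numbered 2. The cause of these changes was not tested. With 3 libraries a group, the interval of Postn still spans 0.843 to 1.93-fold.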
